A study of Mus musculus with 5 samples.

Results

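The levels of 9 transcripts of the insulin-like growth factor (IGF) and insulin receptor system were measured in sorted mouse glioma cells. They were chosen by gene symbol: the ligand gene Igf1, the receptor genes Igf1r, Insr and Igf2r, and the adaptor genes Irs1, Irs2, Shc1, Grb10 and Grb14. All 9 members were found among the 29495 genes of the count tables, and all 9 passed the filter on low counts, which left 15919 genes to test. The cells were glioma cells labelled p53-/-;NF1-/-;tdTomato+/-, from a mouse tumor model of mixed CD-1 and C57BL/6 background. They were cultured with olfactory bulb (OB) neurons from C57BL/6 pups of postnatal days 2 to 3 and then sorted on tdTomato. The libraries were 2 from cells without added IGF-1 (control replicates 1 and 2) and 3 from cells kept overnight in 20 ng/mL IGF-1 (IGF-1 replicates 3, 4 and 5). Both groups share the genotype, the neurons and, as far as they are given, the media. The neuron plating medium held 0.25 mg/mL insulin and 10% serum and the next medium 5% serum. The protocol text used here gives the later media only in part and does not say when the glioma cells were added, so whether they met this insulin or serum is not known here. No label ties the libraries to separate cultures or animals. P-values therefore speak only of how far these libraries differed, and part of that may be technical.

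IGF1R and INSR are related receptor tyrosine kinases that IGF-1, IGF-2 and insulin activate with different affinities. Active receptors phosphorylate IRS1 and IRS2, docking proteins that recruit PI3-kinase and so activate AKT, and SHC1, which recruits GRB2 and leads to RAS and ERK. GRB10 and GRB14 bind the active receptors and hold back their signal, while IGF2R has no kinase and carries IGF-2 to lysosomes. Active AKT keeps FOXO transcription factors out of the nucleus, and the Irs2 and Insr genes are known to be activated by FOXO factors.

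Libraries held 16944315 to 20144181 counts. On the first principal component, with 42.6% of the variance, the controls lay at -10.5 and -13.3. IGF-1 replicates 3 and 4 lay at 0.19 and -0.24, and replicate 5 farthest out at 23.8. On the second, replicate 5 (8.38) lay near the controls (8.24 and 8.60), away from replicates 3 and 4 (-12.3 and -12.9). The biological coefficient of variation was 0.0774 with IGF-1 replicate 5 and 0.0324 without it. Results are therefore given with and without it. The 10 glial progenitor and glioma markers looked at were all detected, with summed levels of 4553 to 4713 CPM (a gene's counts scaled to one fixed library total, with TMM factors) in the controls and 4872 to 5410 with IGF-1. The defining neuronal nuclear gene Rbfox3 had 0 or 1 counts per library, and the microglial genes Ptprc, Csf1r and Tyrobp had 1 to 7, 3 to 5 and 0 to 2. Of 15 neuronal markers found, 9 averaged under 1 CPM, as did 9 of 11 microglial ones. Other neuronal markers were read: Tubb3 at 48.1 to 57.7 CPM, Nefm at 19.8 to 27.4 CPM and Nefl at 14.6 to 19.9 CPM. Syt1 was at 11.3 CPM in IGF-1 replicate 5, where Nefm was lowest, and at 4.67 to 5.55 CPM in the other libraries. The 15 summed to 95.1 CPM in both controls and 107 to 116 CPM with IGF-1, so this sum was higher in all 3 treated libraries, and its part in the results was not tested.

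The sequences before the Irs1 and Irs2 genes are shown first because these were the only 2 members called different between the groups. RefSeq (GRCm38.p6) gave promoter entries for 8 of the 9 members, with 10 start sites in all; Insr had none. The 250 bases before each start were searched on both strands for 4 motifs: GTAAACA, the core site of FOXO factors; CAAAACA, the core of the insulin response sequence to which FOXO factors also bind; CACGTG, the E-box of factors such as TFE3 and MYC; and GGGCGG, the GC box of SP1. In the lines here, capitals mark CACGTG and CAAAACA (written TGTTTTG where it lies on the other strand), and in Irs1 the last 2 bases of the E-box are the first 2 of TGTTTTG. The Irs1 window is chr1:82291440-82291689 and the Irs2 window chr8:11008930-11009179, both on the minus strand of GRCm38, a different build from the GRCm39 named for the counts.
Irs1: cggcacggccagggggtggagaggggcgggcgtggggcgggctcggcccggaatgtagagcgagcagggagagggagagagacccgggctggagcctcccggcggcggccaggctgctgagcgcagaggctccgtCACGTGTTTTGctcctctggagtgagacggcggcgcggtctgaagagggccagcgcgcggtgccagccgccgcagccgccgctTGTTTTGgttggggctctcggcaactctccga
Irs2: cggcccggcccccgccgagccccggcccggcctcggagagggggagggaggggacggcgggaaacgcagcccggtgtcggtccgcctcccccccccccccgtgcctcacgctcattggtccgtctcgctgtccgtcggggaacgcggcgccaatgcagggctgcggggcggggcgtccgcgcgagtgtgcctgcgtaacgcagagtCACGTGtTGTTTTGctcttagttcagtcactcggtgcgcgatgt

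In both genes an E-box ran into the insulin response core, with a shared end in Irs1 and 1 base between them in Irs2. The E-box began 115 bases before the start of Irs1 and 44 bases before that of Irs2. Another insulin receptor substrate gene, Irs4, on chromosome X, held the pair as Irs2 does, 154 bases before its start. Irs3 was not found in the count tables. The 26-base windows around the pair, from chr1 for Irs1, chr8 for Irs2 and chrX for Irs4, read as follows, again with both motifs in capitals.
Irs1: tccgtCACGTGTTTTGctcctctgga
Irs2: agagtCACGTGtTGTTTTGctcttag
Irs4: acggtCACGTGtTGTTTTGcccactg
A run of 17 bases, GTCACGTGTTGTTTTGC, was the same in Irs2 and Irs4 and in no other of 32851 promoter windows. CAAAACA was in 5.56% of all windows and CACGTG in 6.02%. Both lay at most 10 bases apart, in either order, in 14 windows (0.0426%), 3 of them those of Irs1, Irs2 and Irs4. The spacing was chosen after the Irs1 and Irs2 windows had been seen. None of the other members held the pair: Igf2r had 2 E-boxes and no CAAAACA, and Igf1r, Igf1, Shc1, Grb10 and Grb14 had neither motif. GTAAACA was in 3.17% of windows and in none of the members', and GGGCGG was in 32.7% of windows and in those of Irs1, Irs2, Igf1r, Igf2r, Shc1, Grb10 and Grb14. A match is a description of the letters and shows no binding.

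The comparison asked whether cells given IGF-1 change the transcripts of the system that receives it. Of the 9 members 2 fell and 0 rose, and both that fell encode IRS docking proteins. Of all genes tested, 0.339% were lower and 0.685% higher by the same rule (edgeR's quasi-likelihood test, Benjamini-Hochberg adjusted p under 0.05). The median log2 change was -0.08 over the members and -0.01 over all genes tested. DESeq2 also called 0 members higher and 2 lower, against 1.2% and 0.559% of all genes. Without IGF-1 replicate 5 edgeR called 0 and 2, against 5.49% and 3.65%. Unadjusted, 1 member was higher and 2 were lower at a p under 0.05, against 7.1% and 5.57% of all genes.

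Irs1 was read at 53.4 and 53.7 CPM in the controls and at 34.1, 36.0 and 32.7 CPM in IGF-1 replicates 3, 4 and 5. All 3 IGF-1 libraries lay well below both controls, and the mean with IGF-1 was 64.0% of the control mean. The log2 change was -0.64 (SE 0.08, adjusted p = 0.0055 by edgeR) with all libraries and -0.61 (SE 0.07, adjusted p = 5.09e-10) without replicate 5. Irs2, the more abundant of the pair, was at 268 and 261 CPM in the controls and 182, 179 and 204 CPM with IGF-1. The groups did not overlap here either, and the IGF-1 mean was 71.1% of the control mean. Its log2 change was -0.49 (SE 0.07, adjusted p = 0.0137 by edgeR) with all libraries and -0.55 (SE 0.04, adjusted p = 2.87e-19) without replicate 5. Groups did not overlap, with IGF-1 lower, for 16.9% of all genes tested. Both calls rest on the 2 control libraries: without control replicate 1 or 2 the edgeR adjusted p was 0.206 or 0.233 for Irs1 and 0.349 or 0.336 for Irs2, with log2 changes of -0.64 and -0.64, and -0.47 and -0.51. The Irs2 call was also lost without IGF-1 replicate 3 (adjusted p = 0.0815) or 4 (0.0624), at -0.47 and -0.46.

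**Figure D1:**
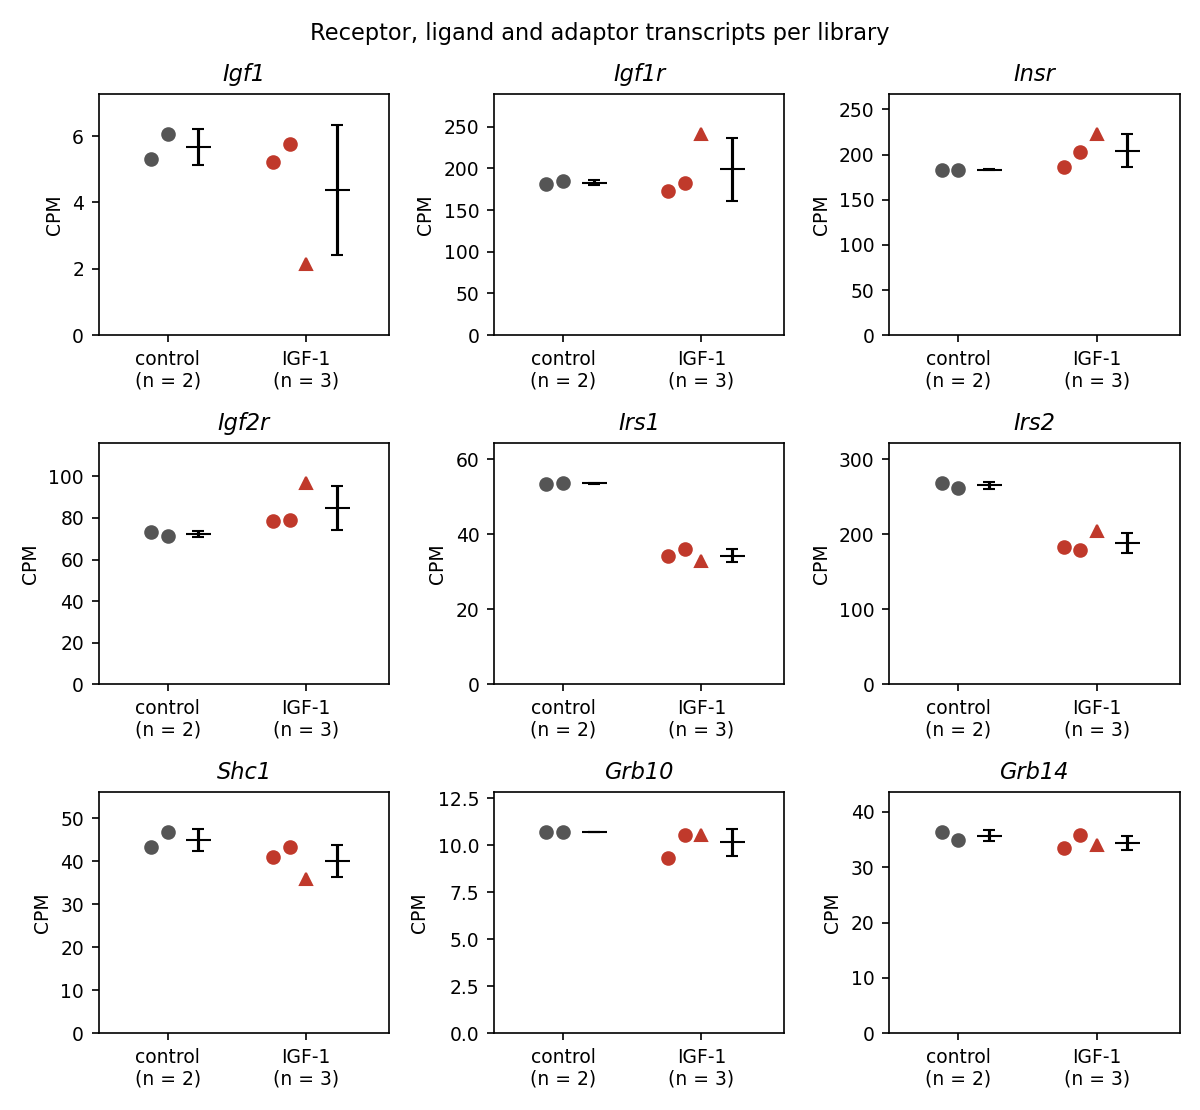
Level of each of the 9 transcripts in CPM (y axis, from 0) by group (x axis); grey circles are the 2 controls, red circles IGF-1 replicates 3 and 4, the red triangle replicate 5, and the black marks beside them the group mean ± SD. Irs1 and Irs2 lie lower in all 3 IGF-1 libraries, while the triangle is the highest point for Igf1r, Insr and Igf2r and the lowest for Igf1.

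The ratio of Irs1 to Irs2 reads within a library, which needs no scaling, showed whether the pair fell by the same factor. Controls gave 0.199 and 0.205, and the IGF-1 libraries 0.187, 0.201 and 0.161, so replicates 3 and 4 lay near the controls and replicate 5 lowest. The mean log2 ratio was -2.31 ± 0.0321 (SD, n = 2) in the controls and -2.46 ± 0.165 (SD, n = 3) with IGF-1, a difference of -0.15. An exact two-sided permutation test over the 5 libraries gave p = 0.3 (0.45 adjusted over the 3 ratios computed), where 2 against 3 libraries cannot go below 0.1. Without replicate 5 the difference was -0.06.

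Irs4, a relative that was not among the 9 members, was read at 99.9 and 99.4 CPM in the controls and 88.8, 91.4 and 76.3 CPM with IGF-1. All 3 IGF-1 libraries lay below both controls, by a log2 change of -0.22 (SE 0.08), but Irs4 did not pass the test (edgeR adjusted p = 0.296, or 0.0711 without replicate 5). The 5 other tested genes with the motif pair in their promoter window were at -0.71 (Zfp791), -0.45 (Klf11), -0.41 (Fam214a), -0.04 (Pyroxd1) and 0.06 (Pcbp1) on the log2 scale. With all libraries 0 of these 6 genes were called by edgeR, and DESeq2 called 0. Before adjustment 0 were higher and 4 lower, against 7.1% and 5.57% of all genes tested. Without replicate 5 edgeR called Klf11 (-0.63), Fam214a (-0.47) and Zfp791 (-0.79) lower and Pcbp1 (0.12) higher, against 3.65% and 5.49% of all genes. The set was made after the Irs1 and Irs2 values were seen. Klf11, Pcbp1 and Pyroxd1 held, on one strand or the other, the joined form of Irs1, CACGTGTTTTG, and 1 of these 3 was above 0.

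**Figure D2:**
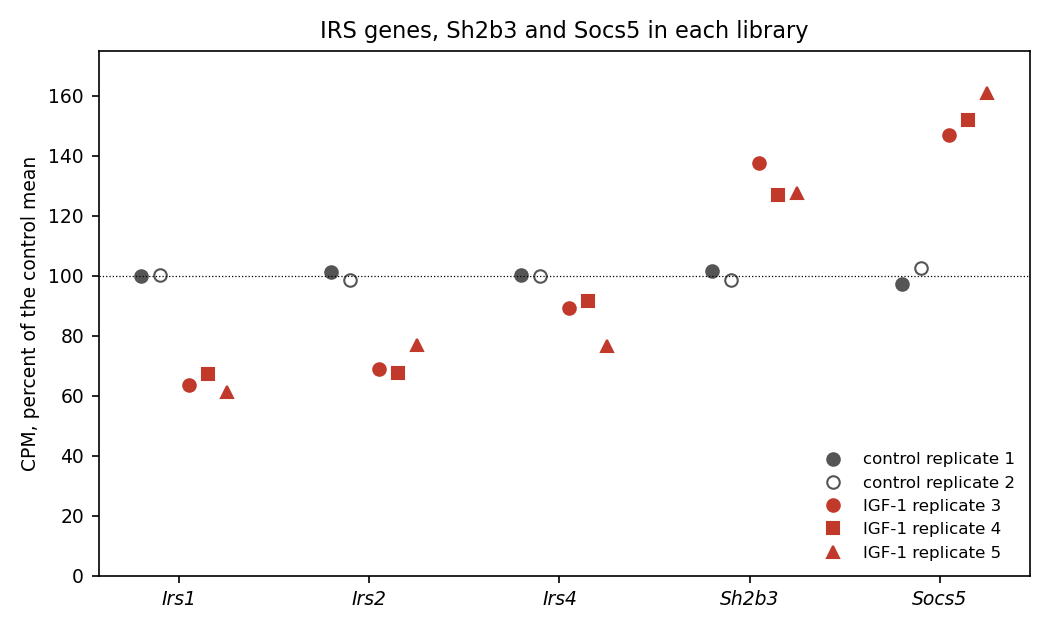
CPM as a percentage of the control mean (y axis, from 0) in each of the 5 libraries for Irs1, Irs2, Irs4, Sh2b3 and Socs5 (x axis); grey marks are controls, red marks IGF-1 libraries. The IGF-1 libraries lie below the controls for the 3 IRS genes, with Irs4 the nearest to them, and above for Sh2b3 and Socs5.

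Neither of the signalling receptor genes passed the test. Igf1r was at 181 and 185 CPM in the controls and 172, 182 and 241 CPM in IGF-1 replicates 3, 4 and 5. Replicates 3 and 4 overlapped the controls and replicate 5 alone was higher. The log2 change was therefore 0.12 (SE 0.12, edgeR adjusted p = 0.727) with all libraries and turned to -0.05 (SE 0.04, adjusted p = 0.626) without replicate 5. Insr was at 183 CPM in both controls and 186, 203 and 223 CPM with IGF-1. The groups did not overlap, as for 16.2% of all tested genes in this direction, but the rise of 0.16 (SE 0.08) was not called (edgeR adjusted p = 0.446), nor was that of 0.09 without replicate 5 (adjusted p = 0.236). The reads of Igf1r and Insr stood at a ratio of 0.989 and 1.01 without added IGF-1 against 0.925, 0.899 and 1.08 with it, a difference of -0.05 in mean log2 ratio (exact two-sided permutation p = 0.8, also after adjustment over the 3 ratios). That ratio of reads is not one of transcripts, because the Igf1r transcript is longer. Per kilobase Insr was above Igf1r in all 5 libraries, by 1.13 to 1.36 times.

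Igf2r, the clearance receptor, had the largest positive change among the members, but it was not called. It was at 73.5 and 71.3 CPM in the controls and 78.6, 79.0 and 97.0 CPM with IGF-1. All 3 IGF-1 libraries lay above both controls, replicates 3 and 4 by little and replicate 5 by more. The log2 change was 0.23 (SE 0.10), with an unadjusted p of 0.0369 and an adjusted p of 0.362 by edgeR. Without replicate 5 it was 0.12 (SE 0.06, adjusted p = 0.201). The noncoding RNA Airn, which overlaps Igf2r on the opposite strand, was at 13.2 CPM on average, and it is not known here whether strand was used in counting, so some of the reads of the pair may be shared.

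Shc1, Grb10 and Grb14 were not called. Shc1 was at 43.2 and 46.8 CPM in the controls and 40.9, 43.3 and 36.0 CPM with IGF-1, and the groups overlapped. Its log2 change was -0.17 (SE 0.09, edgeR adjusted p = 0.49), or -0.10 without replicate 5, its lowest library. Grb10, an imprinted gene in mice, was scarce, at 10.7 CPM in both controls and 9.35, 10.6 and 10.6 CPM with IGF-1. Its groups did not overlap only by a small margin, and its log2 change of -0.08 (SE 0.13) was not called (edgeR adjusted p = 0.837). Grb14 was at 36.4 and 35.0 CPM in the controls and 33.4, 35.9 and 34.1 CPM with IGF-1, a log2 change of -0.05 (SE 0.08, edgeR adjusted p = 0.824), with overlapping groups. The reads of Grb10 per read of Igf1r, an inhibitor set against its receptor, numbered 0.0593 and 0.058 in controls, against 0.0542, 0.0581 and 0.0437 in IGF-1 libraries. Replicate 5 was again the library apart, and the mean log2 ratio differed by -0.18 (exact two-sided permutation p = 0.3, or 0.45 adjusted), or by -0.06 without it.

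The ligand gene Igf1 was scarcely read in these cells, with 92 and 103 counts in the controls and 95, 109 and 44 in IGF-1 replicates 3, 4 and 5. In CPM these were 5.30, 6.07, 5.23, 5.76 and 2.15, so 4 libraries were alike and replicate 5 was low. The log2 change was -0.39 (SE 0.33, edgeR adjusted p = 0.672) and -0.05 (adjusted p = 0.932) without replicate 5. In replicate 5 the 9 endothelial and mural markers found summed to 6.55 CPM, against 8.36 to 11.6 CPM in the other libraries, but its members did not move as one. The endothelial gene Flt1, the most abundant of the list, was lowest there, at 4.79 CPM against 5.47 to 7.61 CPM in the other libraries. The pericyte gene Rgs5 (12 counts against 25 to 39) and the endothelial gene Pecam1 (6 against 14 to 23) were lowest there too. Kdr (8 against 0 to 5) and Kcnj8 (3 against 0 to 2), both with few counts, were highest there. The part of other cell types in the level of Igf1 was not tested. In sorted bulk cells, fewer cells that make a transcript and less of it per cell cannot be told apart. Igf2, the other IGF ligand gene, had 0 to 5 counts per library.

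**Figure D3:**
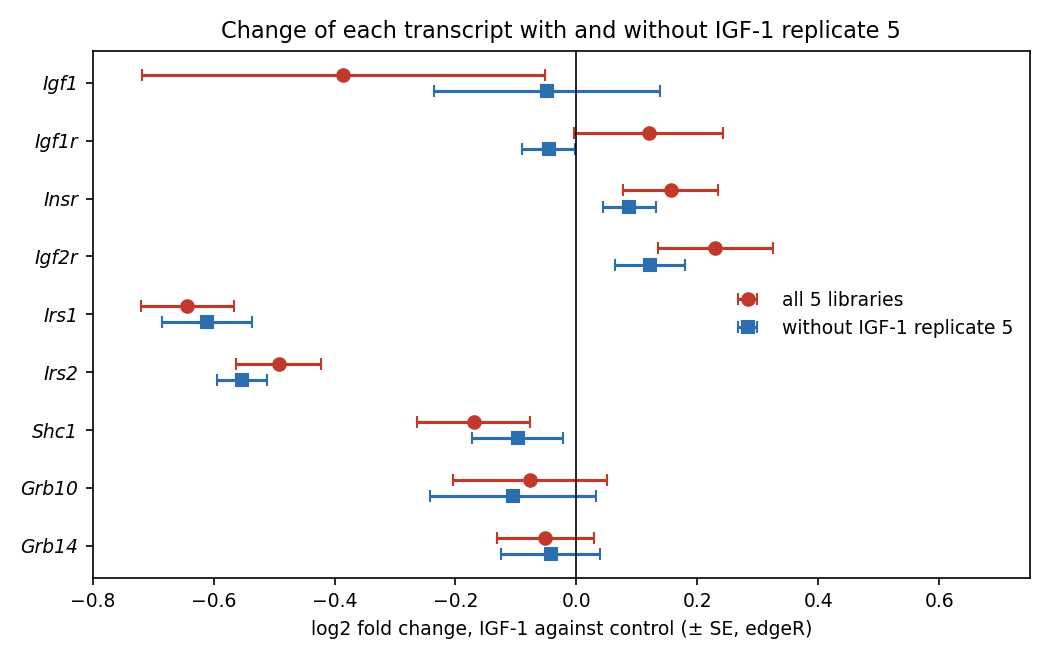
Log2 fold change of each of the 9 transcripts, IGF-1 against control (x axis), with bars of ± SE from edgeR; red circles use all 5 libraries and blue squares leave out IGF-1 replicate 5. Irs1 (-0.64 and -0.61) and Irs2 (-0.49 and -0.55) lie left of 0 in both, while Igf1r crosses 0 and Igf1 moves close to it.

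Replicate 5 was the highest library for 3 members, the receptor genes Igf1r, Insr and Igf2r, and the lowest for Igf1, Irs1 and Shc1. Over all tested genes it was above the other 4 libraries for 28.1% and below them for 29.4%. Its difference from IGF-1 replicates 3 and 4 moved with transcript length. Among genes of at least 10 CPM, the median log2 difference was -0.29 for 468 genes with transcripts under 1 kb, -0.12 for 1705 genes of 1 to 2 kb and 0.07 for 589 genes over 8 kb. Between replicates 3 and 4 the same medians were -0.02, -0.01 and 0.002. The 3 receptor transcripts are all over 8 kb, with Igf1r at 11.4 kb, Insr at 9.36 kb and Igf2r at 8.89 kb. Replicate 5 differed from the mean of replicates 3 and 4 by 0.45 for Igf1r, 0.20 for Insr and 0.30 for Igf2r, at the 95.9, 77.9 and 89.8 percentiles of genes over 8 kb. Irs1, of like length at 9.14 kb, went the other way at -0.10 (11.9 percentile). With an offset for the length trend in each library, an alternative added after seeing the data, the log2 changes were -0.67 for Irs1 and -0.53 for Irs2 (edgeR adjusted p = 0.00294 and 0.0020), by a rule that called 0.573% of all genes lower and 0.992% higher. They were 0.09, 0.13 and 0.20 for Igf1r, Insr and Igf2r, which were still not called (adjusted p = 0.75, 0.46 and 0.301).

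**Figure D4:**
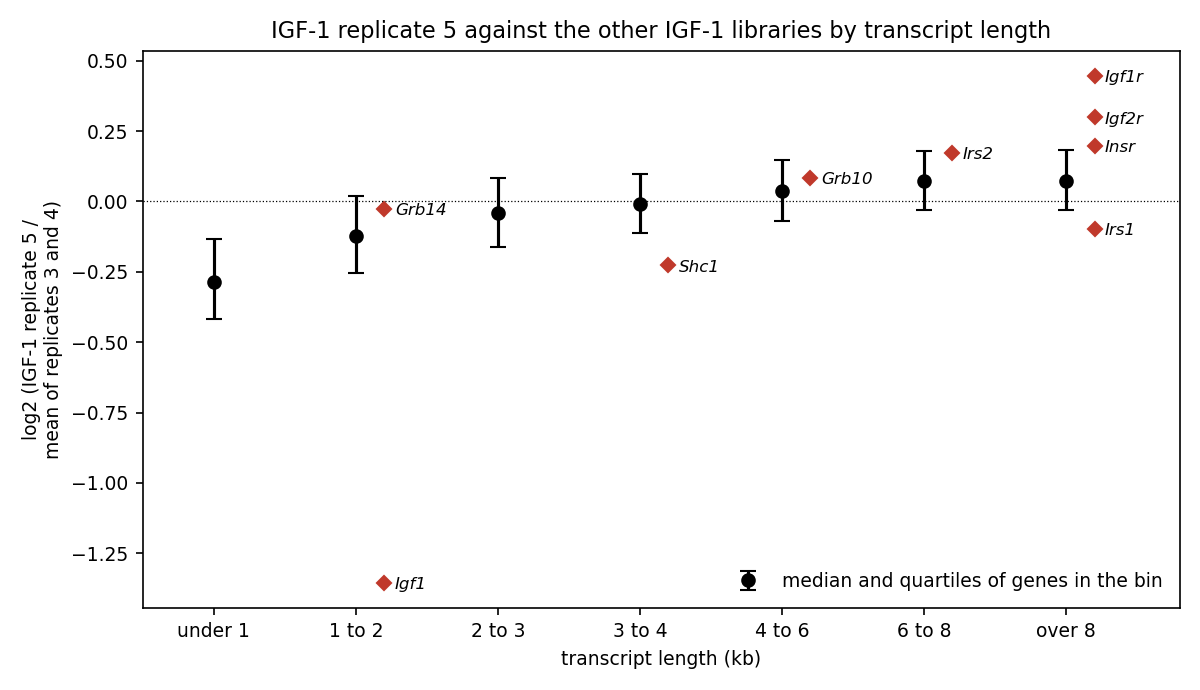
Log2 ratio of IGF-1 replicate 5 to the mean of replicates 3 and 4 (y axis) by transcript length in kb (x axis); black points and bars are the median and quartiles of genes of at least 10 CPM in each length bin, and red diamonds are the 9 members. The medians climb from -0.29 under 1 kb to 0.07 over 8 kb, the 3 receptor genes lie above the median of their bin, and Igf1 lies far below its own.

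The level of each gene per kilobase gave the makeup of the system in these cells. Lengths were those of the longest principal transcript, and the values here are levels in CPM per kb, mean ± SD in the controls (n = 2). Irs2 led with 41.9 ± 0.786, followed by Insr at 19.6 ± 0.04, Grb14 at 18.0 ± 0.505, Igf1r at 16.0 ± 0.257 and Shc1 at 13.9 ± 0.789. Igf2r was at 8.15 ± 0.173, Irs1 at 5.86 ± 0.0203, Igf1 at 3.4 ± 0.325 and Grb10 at 2.12 ± 0.000856. Irs2 was above Insr in every library, also with IGF-1, when its mean was 29.8 ± 2.12 (SD, n = 3) against 21.8 ± 1.96. Per kilobase there were 7.04 to 8.99 times more reads of Irs2 than of Irs1 over the 5 libraries. Grb14 was above Igf1r in 4 of 5 libraries and Igf1 above Grb10 in 4 of 5, so these neighbours did not differ beyond their spread. With the summed length of all annotated exons in place of 1 transcript, Irs2, Insr and Igf1r led in that order (41.9, 13.3 and 10.9), Grb14 fell back to 4.97, and Igf1, at 0.574, lay below Grb10, at 1.18, in all 5 libraries. The places of Grb14 and Igf1 in the order thus depend on the length used.

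By the root mean square difference of log2 CPM, each centred on the gene's own mean over the 5 libraries, the genes most like Irs1 were Tmco6 (0.0226), Zfp799 (0.0281) and Txnip (0.0323), out of 9485 genes with a mean of at least 10 CPM. The nearest to Irs2 were Poli (0.0294), Mtus1 (0.0459) and Zfp113 (0.0465). Irs1 and Irs2 were 0.128 from each other, nearer than either was to any other member. The nearest genes to Igf1r were Astn1, Rbms3 and Myo6 (0.0197 to 0.0279), and to Insr Sh3glb1, Ptgfrn and Tmem151b (0.0118 to 0.0149). Among the members, Insr lay 0.0634 from Igf2r and 0.095 from Igf1r, and all 3 share the high value in replicate 5. These distances rest on 5 libraries and are a description.

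Around the members, few genes of the pathway were called. Over all genes tested, edgeR called 0.685% higher and 0.339% lower, with 7.1% and 5.57% before adjustment. Of 14 tested relatives of the members (18 found of 22), 1 rose and 0 fell, with 1 and 1 before adjustment, and the median log2 change was 0.17. The gene that rose was Sh2b3, the adaptor LNK that restrains cytokine and growth factor receptor signals. It was at 48.1 and 46.6 CPM in the controls and 65.2, 60.1 and 60.5 CPM with IGF-1, all 3 above both controls (log2 0.39, SE 0.07, edgeR adjusted p = 0.0442). With limma-voom, or without either control or IGF-1 replicate 3 or 4, 0 relatives were called. Several relatives were abundant and not called, such as Shc4 at -0.04 and Shc3 at 0.05. The orphan receptor gene Insrr had 0 to 2 counts per library.

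The list on attenuation of the receptors or IRS proteins had 30 tested genes, and whether each restrains the signal here was not tested. Of these, 1 rose and 0 fell by edgeR, and the median was 0.01. Before adjustment 6 were higher and 1 lower, against 7.1% and 5.57% of all genes tested. The gene that rose was Socs5, of the suppressor of cytokine signalling family, from 99.5 and 105 CPM in the controls to 150, 155 and 165 CPM with IGF-1. The groups were far apart, with a log2 change of 0.62 (SE 0.07, edgeR adjusted p = 0.00505), or 0.58 without replicate 5 (adjusted p = 1.01e-16). DESeq2 called 3 of the list higher, against 1.2% of all genes. It added Ptpn1, the tyrosine phosphatase PTP1B that dephosphorylates both receptors, and Cbl, a ubiquitin ligase. Without replicate 5, edgeR called 4 higher, Socs5, Ptpn1 (0.28), Cbl (0.26) and Socs7 (0.23), and 1 lower, Gigyf1 (-0.28), whose protein binds GRB10. By that rule 5.49% of all genes were higher and 3.65% lower. With all libraries by edgeR Ptpn1 was at 0.29 (adjusted p = 0.0669), Cbl at 0.34 (0.0933), Socs7 at 0.27 (0.128) and Gigyf1 at -0.29 (0.0589). Apart from Socs5, these genes were named after their values were seen. The call of Socs5 was lost without either control, when edgeR called 0 members of the list.

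**Figure D5:**
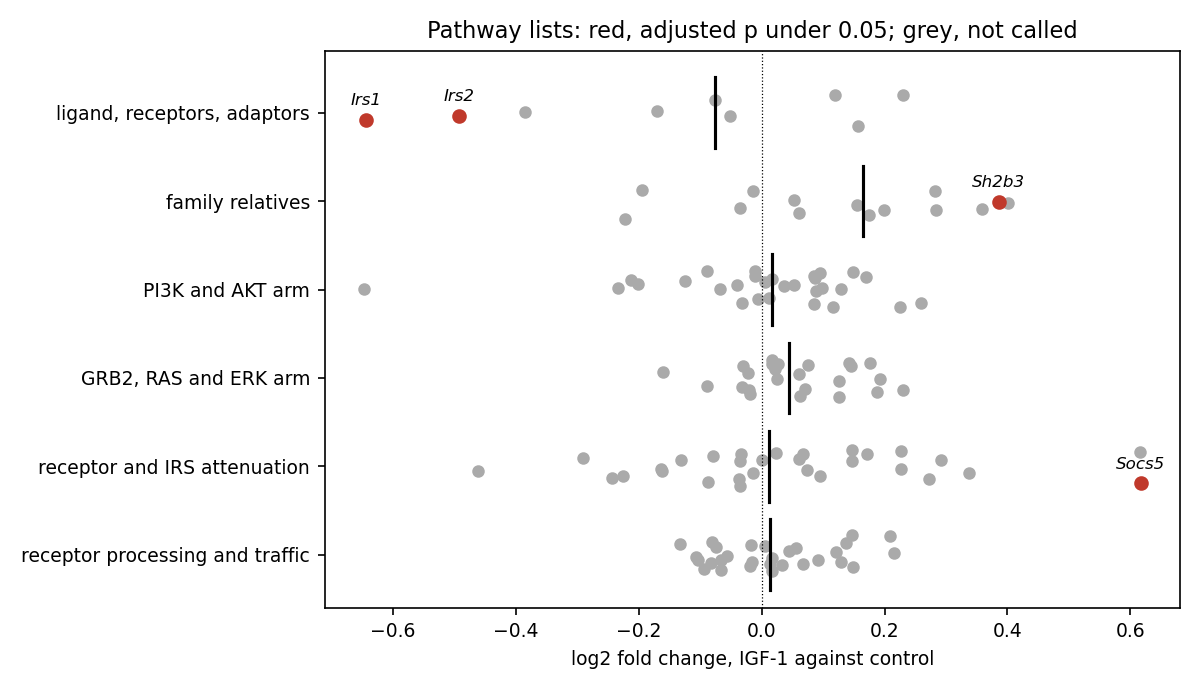
Log2 fold change, IGF-1 against control (x axis), of each tested gene of the 9 members and of 5 pathway lists (rows, with points spread vertically for visibility); red points have an edgeR adjusted p under 0.05, grey points do not, and black bars are medians. The 4 red points are Irs1, Irs2, Sh2b3 and Socs5, and the medians of the 4 lists other than the relatives lie within 0.1 of 0.

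Downstream of the IRS proteins, 0 of 29 tested genes of the PI3K and AKT arm were called by edgeR. Before adjustment 1 was higher and 3 were lower, against 7.1% and 5.57% of all genes tested. DESeq2 called 1 lower, against 0.559% of all genes. The most abundant, Pik3r1, the regulatory subunit that binds IRS proteins, was at 0.10 on the log2 scale (edgeR adjusted p = 0.529), and Inppl1, the lipid phosphatase SHIP2, at 0.12 (0.534). The 1 gene that DESeq2 called was Pik3ip1, an inhibitor of PI3-kinase, at 32.3 and 30.9 CPM in the controls and 16.2, 19.8 and 24.4 CPM with IGF-1. All 3 IGF-1 libraries lay below both controls, at a log2 change of -0.65 (SE 0.14, edgeR adjusted p = 0.0734; DESeq2 adjusted p = 0.00467). Without replicate 5, edgeR called Pik3ip1 (-0.81), Tsc1 (-0.22) and Rictor (-0.25) lower and Akt1 (0.15) higher, against 3.65% and 5.49% of all genes. These 4 were named after their values were seen. The list's median was 0.02.

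Downstream of SHC1, 0 of 24 tested genes of the GRB2, RAS and ERK arm were called by edgeR or DESeq2. Before adjustment 3 were higher and 1 lower (7.1% and 5.57% of all genes tested), and the list's median was 0.04. Its most abundant genes, the phosphatase gene Ptpn11 and the kinase gene Rps6ka3, were both at 0.03. Without replicate 5 the adaptor gene Crk was called higher (0.17) and the docking protein gene Gab1 lower (-0.13). Both were named after their values were seen, and of all genes 5.49% were called higher and 3.65% lower. Of 29 genes of receptor processing and traffic 0 were called by edgeR or DESeq2, with a median of 0.01. Unadjusted, 2 were higher and 0 lower, beside the same shares of all genes. The clathrin heavy chain gene Cltc was at 0.02 and the chaperone gene Hsp90b1 at -0.13, and without replicate 5 the clathrin light chain gene Cltb was called higher (0.16), again named after its value was seen.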

How the data were processed

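The members and lists were chosen with earlier results of these data known. The authors deposited 1 table per library, which holds unscaled read counts by gene symbol. The submitters' processing notes name cutadapt 3.4, STAR 2.7.9a, featureCounts 2.0.1, DESeq2 1.28.1 and GRCm39; their roles and settings, the annotation and any use of strand are not given in the sources used here, so reads of overlapping genes can be shared.

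Groups came from the titles, which give no batch. Within a group, the libraries of each pair differed beyond sampling noise (chi-square per degree of freedom 2.29 to 13.6), so all 5 were kept. Counts were filtered (filterByExpr, minimum count 10, total 15), scaled with TMM and tested with edgeR 4.0.16 (quasi-likelihood F-test, two-sided) in R 4.3.3, with Benjamini-Hochberg adjustment over 15919 genes and a threshold of 0.05. The SE is the log2 change divided by the square root of F. Ratios of counts within a library were compared by exact permutation.

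Named genes were all members, up to 4 called genes per list (or the 2 most abundant), and the 3 nearest patterns. Transcript lengths came from GENCODE M21 (GRCm38), and 97.5% of tested genes had one. On simulated counts of 15610 genes for this comparison, the test found 55% of 100 genes given a 1.5-fold change and 79% of 100 given a 2-fold change, and made 8 false calls. Alternatives were RLE factors, library totals, no filter, DESeq2 1.42.0, limma-voom (limma 3.58.1) without and with sample quality weights, each library left out and, added after seeing the data, a length offset. The summed level of the microglial markers is not reported here.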

Additional observations from a re-analysis of the deposited data

How the results depend on the processing

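No paired analysis was possible because the replicate numbers are not shared between the groups. Igf1r was at 0.12 with all libraries, and reversed to -0.0026 with limma-voom with sample quality weights and to -0.045 without IGF-1 replicate 5; with 1 library left out it ranged from -0.045 to 0.21. The Igf1r to Insr log2 ratio difference reversed from -0.05 to 0.0026 without IGF-1 replicate 4, and was -0.13 without replicate 5. The cause was not tested. Leaving out 1 library, Irs1 ranged from -0.68 to -0.61 and Irs2 from -0.55 to -0.46, with the calls lost as given above; both kept their call under the other 7 alternatives. The remaining 7 members were called under none of the 12 alternatives.

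Over all genes, 109 were higher and 54 lower. With no filter these counts were 385 and 221, with DESeq2 191 and 89, with sample quality weights 480 and 331, and with the length offset 89 were lower. With 1 library left out they ranged from 0 to 855 and from 2 to 569. The highest counts were those without IGF-1 replicate 5, and the lowest those without control replicate 1 or 2, where the spread of the lone control is taken from the IGF-1 libraries.

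Of the relatives, 0 were higher with limma-voom, and 0 to 1 with a library left out. In the PI3K and AKT arm, 1 gene was lower with no filter, with DESeq2 and with the length offset, 2 were lower with quality weights, and 0 to 1 were higher and 0 to 3 lower with a library left out. In the GRB2, RAS and ERK arm, 0 to 1 were higher and 0 to 1 lower with a library left out. Of the attenuation genes, 4 were higher with no filter and with quality weights, 3 with DESeq2, 2 with the length offset and 0 to 4 with a library left out, and 1 was lower with no filter, quality weights or the length offset and 0 to 1 with a library left out. Of the traffic genes, 0 to 1 were higher with a library left out. Igf1, at 44 to 109 counts, is the member that depth limits most.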
